A study of Mus musculus with 4 samples.

Results

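The step of thymocyte maturation from sorted group 2 to sorted group 3 was followed in mice labelled as lacking Uba3 in T cells. Every gene with at least 10 CPM (counts scaled to a common library total) in either library labelled KO was taken, which gave 8757 of the 35275 genes listed, 8733 of them with a gene symbol. The genes nearest to that limit had 10.01 CPM just inside it and 9.93 CPM just outside. The study sequenced total RNA of thymocytes from untreated C57BL/6 mice 6 to 8 weeks old, separated by flow cytometric sorting. Group 2 was TCRβint CD69hi and group 3 TCRβhi CD69hi, each from Uba3F/F mice (WT) and from Uba3ΔT mice (KO). Uba3F/F mice carry, by their name, the floxed alleles without the deletion and are given as wild type in the genotype field, while Uba3ΔT mice are given there as Uba3-/-. Each of the 4 groups held 1 library. The Cre line behind the deletion and the number of mice behind a library are not given in the sources used here. The field for cell type places both WT libraries in group 2 and both KO libraries in group 3, against the sample titles and the design, and the titles were followed.

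Uba3, which encodes the catalytic part of the NEDD8-activating enzyme, went against its label. It had 453 counts in WT group 2, 356 in WT group 3, 647 in the library labelled KO group 2 and 856 in the library labelled KO group 3. A count over the whole gene (ENSMUSG00000030061, chromosome 6, 97183670 to 97205647, mm10) cannot separate deleted from kept exons. All directions below are therefore those between libraries labelled KO. The libraries held 8964120 counts (KO group 2) and 9689339 counts (KO group 3), and WT libraries 10299863 and 8043077. A count above 0 was present for 23925 genes in KO group 2 and 20521 in KO group 3, against 20440 and 23325 in WT groups 2 and 3. With 1 library a side no difference had a replicate check and no p-value was computed. The 95% interval given with a ratio covers counting error alone. Each KO library also stands apart in some transcripts, as given below. These are Ighg1 and several immunoglobulin V segments in KO group 2, and the Rrp genes, Hsp90aa1 and several neutrophil genes in KO group 3. Neither library can be left out, being the only one of its group.

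Positive selection is the stage at which CD4+ CD8+ thymocytes whose T cell receptor binds self peptide on MHC molecules are kept. These cells raise surface TCR and CD69, end receptor gene recombination, choose the CD4 or CD8 lineage and gain chemokine receptors that guide them from the cortex to the medulla. Later they gain MHC class I, interferon-linked genes and egress receptors before they leave the thymus. NEDD8, attached to cullins, switches on a large class of ubiquitin ligases, through which many regulators of cell division and signalling are degraded.

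Promoter sequences are shown for 3 genes of the MHC class I and interferon-stimulated lists, none of which reached a 2-fold difference in the KO step. The median folds of both lists lay above that of all genes, and a minority of their promoters held the element shown in capitals. H2-K1 and H2-D1 encode classical MHC class I heavy chains, and Ddx58 encodes RIG-I, a cytosolic RNA sensor induced by interferon. Each runs 5′ to 3′ on the gene's strand, from 250 bases before to 50 after the RefSeq start in GRCm38.p6, with the one match to the interferon regulatory factor element GAANNGAAA, on either strand, in capitals. They lie at chr17:34000298-34000597 (minus strand), chr17:35262844-35263143 (plus strand) and chr4:40239776-40240075 (minus strand).
H2-K1: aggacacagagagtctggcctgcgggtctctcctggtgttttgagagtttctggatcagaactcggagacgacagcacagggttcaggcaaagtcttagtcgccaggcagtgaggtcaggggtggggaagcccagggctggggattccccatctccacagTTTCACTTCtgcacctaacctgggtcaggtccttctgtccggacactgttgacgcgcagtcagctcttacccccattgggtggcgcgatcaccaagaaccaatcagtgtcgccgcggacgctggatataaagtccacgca
H2-D1: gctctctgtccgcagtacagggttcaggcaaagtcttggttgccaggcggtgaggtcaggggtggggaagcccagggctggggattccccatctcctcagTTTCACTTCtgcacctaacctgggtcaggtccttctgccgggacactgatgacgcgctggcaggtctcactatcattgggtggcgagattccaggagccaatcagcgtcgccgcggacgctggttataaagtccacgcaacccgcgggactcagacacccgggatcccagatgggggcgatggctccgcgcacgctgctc
Ddx58: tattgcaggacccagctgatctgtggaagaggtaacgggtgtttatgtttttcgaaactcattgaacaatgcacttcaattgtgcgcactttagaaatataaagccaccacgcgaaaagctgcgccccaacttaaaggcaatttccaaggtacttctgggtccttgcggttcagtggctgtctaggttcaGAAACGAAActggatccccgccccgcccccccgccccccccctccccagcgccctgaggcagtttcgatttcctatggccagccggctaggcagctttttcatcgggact
The match is on the opposite strand in both MHC genes and on the gene's strand in Ddx58. Of 20 genes on the MHC class I list among those measured, antigen processing genes included, 15 had a promoter in the RefSeq table. Of these 15, 5 (33.3%) held this element. It was in 9 of 21 interferon-stimulated genes (42.9%), in 1311 of 18685 promoters of all genes (7.02%) and in 418 of 6922 of the measured genes (6.04%). It was in 9 of 72 promoters of genes higher in KO group 3 (12.5%) and in 3 of 43 of genes lower there (6.98%). The letters CCAAT were in 12 of the 15 MHC class I list promoters (80.0%) and in 38.4% of all promoters. A match describes the letters and is not a bound site.

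A gene was called higher or lower where KO group 3 and KO group 2 differed at least 2-fold on the scale of log2 (CPM + 0.5), after TMM scaling between libraries, with an interval excluding 1. By this rule 101 genes were higher in KO group 3, 1.15% of the 8757, and 85 were lower, 0.971%, or 2.12% in either direction. The WT step over the same genes had 113 higher (1.29%) and 37 lower (0.423%), or 1.71% in either direction. The median log2 fold of all genes was 0.04 in KO, with 90% of genes between -0.54 and 0.60, and -0.02 in WT. Leaving out receptor and immunoglobulin segments, unnamed and clone-named entries and pseudogenes left 88 higher and 51 lower. Of the 85 lower genes 42, and of the 101 higher genes 20, reached only 10 to 20 CPM.

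**Figure D1:**
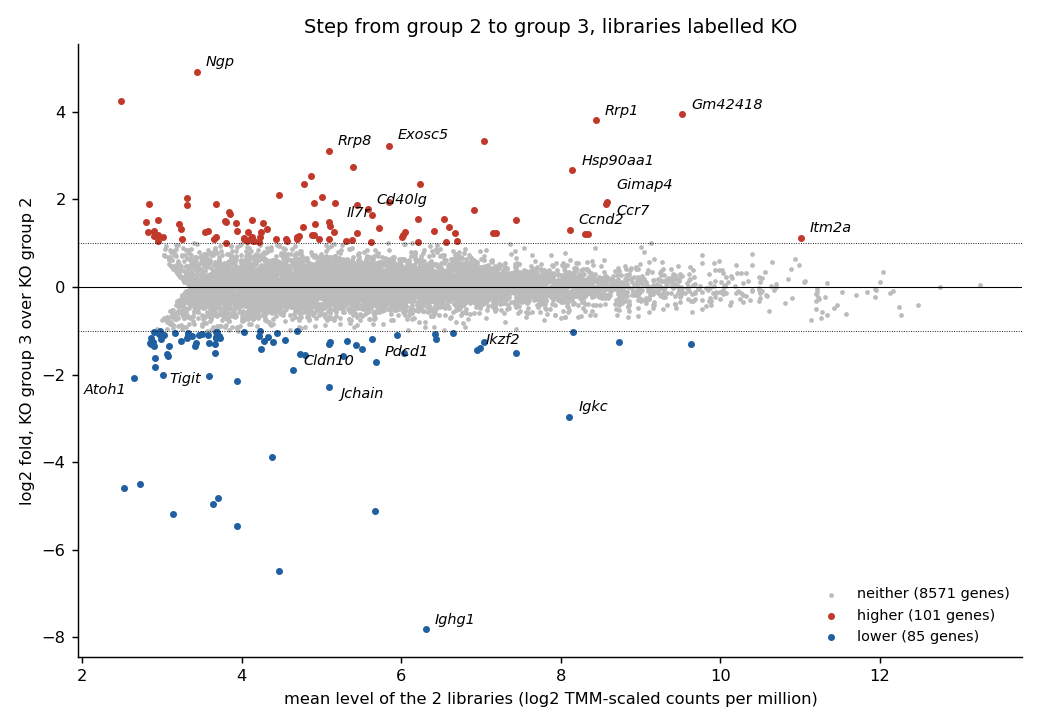
Each point is 1 of the 8757 genes, with the mean level of the libraries labelled KO on the horizontal axis (log2 TMM-scaled CPM) and the log2 fold of group 3 over group 2 on the vertical axis; dotted lines mark 2-fold. The 101 higher genes are red and the 85 lower genes blue; Ccr7 and Gimap4 lie near 1.9 among abundant genes, Rrp1 at 3.81 and Ighg1 at -7.81.

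The KO and WT steps share no library, so their folds can be set side by side. Of the 101 genes higher in KO, 35 (34.7%) were also called higher in WT, which is 31.0% of the 113 called there. As many as 86 of the 101 had a WT log2 fold above 0, where 46.9% of all genes did, and their median WT fold was 0.75. Of the 85 lower genes, 14 (16.5%) were called lower in WT, 37.8% of the 37 called there, and 43 had a WT fold below 0. Their median WT fold was -0.00. Genes called lower in KO and higher in WT numbered 5, and none was called the other way round.

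**Figure D2:**
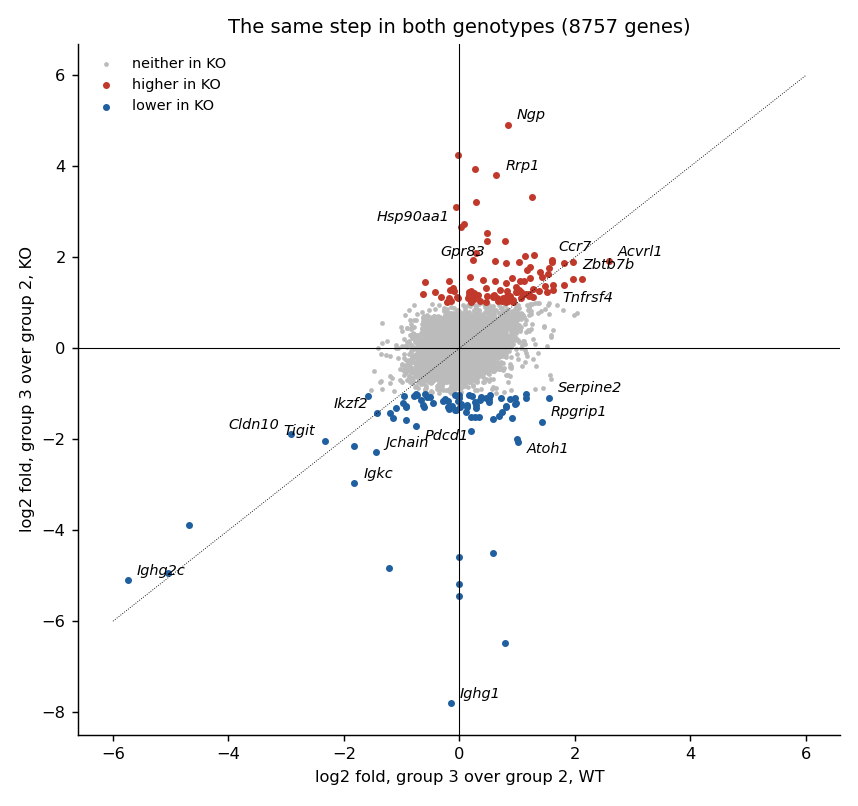
Log2 fold of group 3 over group 2 in WT (horizontal) and in the libraries labelled KO (vertical) for the 8757 genes, with the line of equal folds dotted. Ccr7, Acvrl1, Zbtb7b, Tigit and Cldn10 lie away from 0 on both axes, while Rrp1, Hsp90aa1 and Ngp lie within 1 log2 unit of the vertical axis.

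Among chemokine receptors, Ccr7 and Ccr8 were higher in KO group 3. Ccr7, the chemokine receptor that draws selected cells into the medulla (chromosome 11, 99144196 to 99155077), had 160 CPM in KO group 2 and 599 in KO group 3, a ratio of 3.74 (interval 3.53 to 3.97). Pairs of values below give group 2 first and group 3 second. In WT it had 195 and 592 CPM, so both group 3 libraries stood above both group 2 libraries. Ccr8, a receptor of medullary and regulatory T cells, had 12.2 and 52.3 CPM in the KO step and 26.9 and 66.7 in WT, a KO ratio of 4.28 (3.47 to 5.31). These were the 2 genes called higher on a list of 11, and none was lower, beside 2.12% called among all genes. Beside chemokine receptors this list holds S1pr1, S1pr2, S1pr4, Gpr183, Plxnd1 and the chemokine Ccl4. Of its genes 5 lay below 0 and the median was 0.04. Ccr9, a chemokine receptor of cortical thymocytes, was at -0.14 (log2), and Cxcr4, another cortical receptor, had 287 counts in KO group 2 and 154 in KO group 3, a ratio of 0.497 that missed the call on the log2 scale at -0.99. In WT Cxcr4 stood at 0.02.

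Of 27 maturation and egress genes 5 were higher and 1 was lower, beside 2.12% called among all genes. A log2 fold above 0 was found in 23 of the 27. Their median was 0.52, against 0.04 for all genes and 0.35 for the same genes in WT. Samhd1, a nucleotide phosphohydrolase that restricts viruses, had 37.2 and 111 CPM in the KO step and 51.9 and 142 in WT. Il7r, the IL-7 receptor chain that supports survival of selected cells, had 29.6 and 76.2 CPM in the KO step, a ratio of 2.58 (2.24 to 2.98), and 47.0 and 93.6 in WT. Slfn1, a Schlafen gene of resting T cells, was at 1.23 and Cd52, a surface glycoprotein of lymphocytes, at 1.20, where WT stood at 0.25. The lower gene, Ly6c2, had 351 and 128 counts in the KO step and 177 and 60 in WT. Ly6c2 belongs to a family with near-identical copies, so its counts are less certain.

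S1pr1 and Klf2 were not called in the KO step. S1pr1, the sphingosine phosphate receptor needed to leave the thymus, had a log2 fold of 0.59 in KO and 0.79 in WT. Klf2, the factor that drives S1pr1, had 123 and 177 CPM in the KO step, a log2 fold of 0.53, and 133 and 292 in WT, where its fold of 1.13 was called. The KO group 3 library thus held the lower Klf2 level of the group 3 libraries, a difference with no replicate check. Among 21 integrin and adhesion genes Itgb3 alone was called, beside 2.12% called among all genes. It had 59 and 213 counts in KO and 119 and 249 in WT, while Itgb7 (0.61) and Itgb2 (0.58) stayed under 2-fold.

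Gimap genes encode GTPases that support survival of maturing T cells, in a cluster on chromosome 6. Gimap4 (48684549 to 48692060) had 157 and 608 CPM in the KO step, a ratio of 3.87 (3.65 to 4.10), and 160 and 487 in WT. Gimap3 had 54.3 and 186 CPM, a ratio of 3.43 (3.10 to 3.80), and 43.1 and 127 in WT. Of the 9 list members measured, among them the opposite-strand transcript Gimap1os, these 2 were higher and none was lower, beside 2.12% called among all genes. Of the 9, 7 lay above 0. The median was 0.39, which is the fold of Gimap1os itself. Gimap7 stood at 0.78 and Gimap6 at 0.51. The GTPase genes resemble one another in sequence, which leaves the split of reads between them uncertain.

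Of 20 genes on the MHC class I list none was called, in a step where only 2.12% of all genes were. Of the 20, 14 lay above 0 and 6 below, and the median was 0.30, against 0.48 in WT. The list also holds antigen processing genes (Tap1, Tap2, Tapbp, Psmb8, Psmb9, Psmb10 and Erap1) and Nlrc5. H2-K1 had 5779 counts in KO group 2 and 10411 in KO group 3 (log2 0.74, ratio 1.67, interval 1.62 to 1.73), and H2-D1 13484 and 22659 (log2 0.64). In WT the same genes stood at 1.21 and 0.99. B2m, the shared light chain, was at 0.41 and Nlrc5, the transactivator of class I genes, at 0.90. H2-Q1, a nonclassical class I gene, lay at the other end with 184 and 97 counts, a ratio of 0.489. Class I genes share sequence and their counts may be split among copies.

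Of 29 interferon-stimulated genes 28 had a log2 fold above 0, with a median of 0.50 in KO and 0.77 in WT. The 2 called were Oas2, with 63 and 198 counts in the KO step and a ratio of 2.91 (2.18 to 3.93), and Oasl2, at 157 and 393 counts (ratio 2.32, 1.92 to 2.81), both of the oligoadenylate synthetase family. In WT 7 of the 29 were called, and among all genes 2.12% were called in the KO step and 1.71% in WT. Ddx58 had 465 and 875 counts in the KO step, a log2 fold of 0.80, and 525 and 619 in WT. Usp18, which shuts off interferon receptor signalling, had 118 and 151 CPM in the KO step and 34.5 and 77.0 in WT, so its starting level in KO group 2 lay above both WT libraries. Irf7, a factor that amplifies interferon responses, had 123 and 210 CPM in the KO step and 58.7 and 140 in WT. Ifit3b, outside this list, had 32 and 155 counts (ratio 4.49, 3.05 to 6.79).

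CD4 lineage genes and the ligands by which CD4 cells shape the medulla were among the higher genes. Zbtb7b, which encodes ThPOK, the factor that commits cells to the CD4 lineage, had 6.91 and 20.7 CPM in the KO step and 4.67 and 19.7 in WT. Cd40lg, the CD40 ligand (chromosome X, 57212143 to 57224042), had 188 and 709 counts in the KO step and 262 and 480 in WT; its KO ratio was 3.50 (2.97 to 4.13). Tnfsf11, which encodes RANKL, the signal for medullary epithelial cells, had 212 and 721 counts in the KO step and 102 and 236 in WT. Its KO ratio was 3.15 (2.70 to 3.69). Both group 3 libraries exceeded both group 2 libraries in CPM for Cd40lg and Tnfsf11. Of 6 TNF ligand genes 2 were called, beside 2.12% called among all genes, and 5 lay above 0. Their median was 0.71, while Lta, lymphotoxin alpha, stood at 0.78 and Tnf at 0.65.

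The coreceptors themselves were not called. Cd4 was at 0.22 in KO and 0.24 in WT. Cd8a stood at -0.36 and Cd8b1 at -0.61 in KO, and at -0.08 and -0.21 in WT. Runx3, the CD8 lineage factor, had 206 and 361 counts in the KO step (log2 0.69) and 196 and 155 in WT (0.03). Gata3 was at 0.09. Over 21 lineage genes 2 were higher and none was lower, beside 2.12% called among all genes. The median was -0.03, so the list as a whole lay at the level of all genes.

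**Figure D3:**
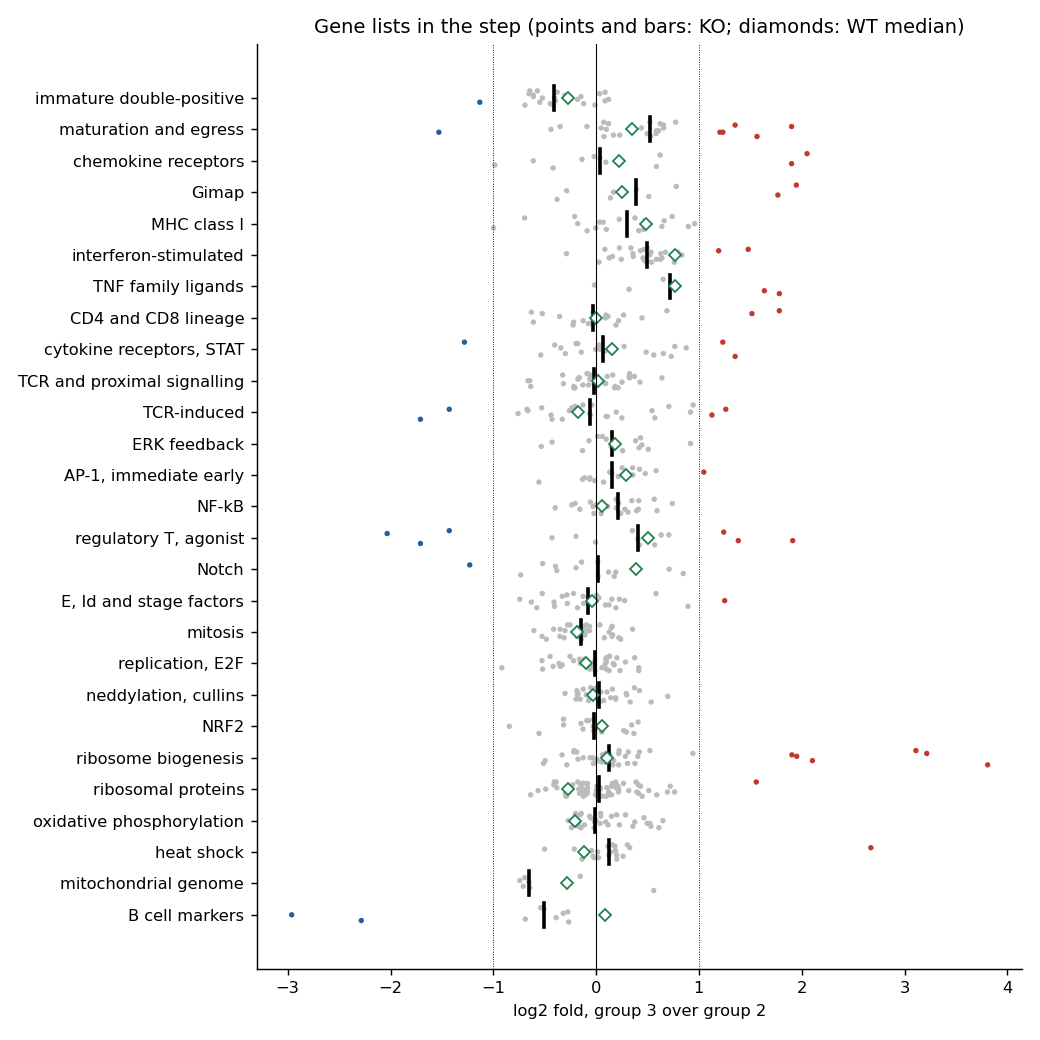
Each point is 1 gene of a list and its log2 fold of group 3 over group 2 in the libraries labelled KO, red where called higher and blue where called lower; bars are KO medians and diamonds the medians of the same genes in WT. The maturation list lies to the right at 0.52 and the immature list to the left at -0.41, and the mitochondrial genome has the lowest median, -0.65.

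Of 23 genes of the earlier, double-positive stage 1 was called lower, beside 0.971% called lower among all genes. This was Rapsn, a receptor-clustering protein, with 245 and 118 counts. In all 19 had a log2 fold below 0 and 4 above, with a median of -0.41 in KO and -0.27 in WT. Rag1, which cuts receptor genes for recombination, had 227 and 153 CPM in the KO step (log2 -0.57) and 322 and 254 in WT. Rag2, its partner, was at -0.15 in KO and -0.51 in WT. Ptcra, the pre-TCR alpha chain, was at -0.40, Dntt, the polymerase that adds untemplated bases at receptor joints, at -0.55, and Cd24a, a surface marker of immaturity, at -0.64. These last 5 genes stayed above 20 CPM in all 4 libraries.

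Cd69, one of the 2 sorted proteins, had 5475 and 6315 counts in the KO step, a log2 fold of 0.10, and 6718 and 4288 in WT (-0.28). The TCR beta constant genes, transcripts of the other sorted protein, were not higher in the TCRβhi library: Trbc2 was at -0.64 and Trbc1 at -0.65 in KO, and at -0.11 and -0.15 in WT. Trbc1 and Trbc2 are near-identical in their coding parts. Of 35 genes of the TCR complex and its proximal signalling none was called, beside 2.12% called among all genes, and the median was -0.02. The thymocyte markers were present in every library, with none of 16 at 0 and summed levels of 32973 and 32147 CPM in WT and 34490 and 28417 in KO. The median of the immature list was below 0 and that of the maturation list above 0 in both genotypes. These lists were chosen with earlier results of these data known, so their order cannot check the titles.

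Genes induced by TCR signalling split. Itm2a, a membrane protein of selected thymocytes, had 11454 and 26981 counts in the KO step and 19772 and 22961 in WT, and Cd200, an immunoglobulin-family surface protein, had 86 and 229 counts in KO and 283 and 207 in WT. Both were called higher in KO and neither in WT. Pdcd1 encodes the inhibitory receptor PD-1 (chromosome 1, 94038305 to 94052553) and had 78.7 and 23.7 CPM in the KO step, a ratio of 0.301 (0.258 to 0.351), against 67.4 and 39.7 in WT. Ikzf2 encodes Helios, a factor of strongly signalled cells, and had 181 and 66.8 CPM in the KO step and 305 and 113 in WT, ratios of 0.370 and 0.371. Over 27 genes of this list 2 were higher and 2 lower, beside 2.12% called among all genes, with a median of -0.06. Nr4a1, whose level follows signal strength, was at 0.25, Egr2 at 0.57 and Egr1 at 0.92, and Cd5, another reader of signal strength, at -0.66.

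Regulatory T cell and agonist-selection genes went both ways, 3 higher and 3 lower of 15, beside 2.12% called among all genes. Tigit, an inhibitory receptor (chromosome 16, 43648867 to 43664146), had 19.6 and 4.41 CPM in the KO step, a ratio of 0.225 (0.157 to 0.317), and 10.6 and 1.72 in WT. Tigit thus joined Pdcd1 and Ikzf2 on the lower side. Gpr83, a receptor found on regulatory T cells, had 14.8 and 57.2 CPM in the KO step, a ratio of 3.86 (3.18 to 4.70), and 28.5 and 43.8 in WT. Tnfrsf4, which encodes OX40, had 132 and 379 counts in the KO step and 317 and 769 in WT, so each KO library stood under its WT counterpart. Izumo1r, folate receptor 4, was at 1.24. Foxp3, the defining factor of regulatory T cells, fell outside the 8757 genes with 15 and 22 counts in KO, and had 25 and 54 in WT.

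Other regulators of signalling were mostly not called, beside 2.12% called among all genes. Ikzf1 (-0.63), Nfatc1 (-0.74) and Nr4a3 (-0.76) lay on the lower side without a call. None of 16 ERK feedback genes was called (median 0.15), none of 25 NF-kB genes (0.21) and 1 of 17 AP-1 and immediate early genes, the repressor Bach2, with 226 and 509 counts. Of 22 cytokine receptor and STAT genes Il7r and Ifngr2, an interferon gamma receptor chain (1.23), were higher and Pim1, a STAT-induced kinase, was lower with 137 and 58 counts. Notch2 was the 1 of 15 Notch pathway genes called, with 119 and 52 counts in the KO step and 141 and 112 in WT. Notch1 stood at -0.73 in KO and 0.42 in WT. Rora, a nuclear receptor of innate and helper lymphocytes, was the 1 of 27 E protein, Id and stage factor genes called, with 59 and 158 counts.

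Few genes of survival and division were called. Of all 8757 genes 2.12% were called in either direction, a share at which lists of this size hold few calls. Bcl2, which protects selected cells from death, had 177 and 293 CPM in the KO step (log2 0.73) and 187 and 282 in WT (0.59). Bcl2l11, which encodes the death inducer BIM, was at -0.43 in KO and -0.35 in WT. None of 5 survival genes, 8 death genes or 18 p53 pathway genes was called, and Cdkn1a, a p53 target that halts division, had 96 and 74 counts. None of 39 mitosis genes was called, though 29 lay below 0 with a median of -0.14. None of 37 replication genes was called (median -0.01). Ccnd2, the D cyclin of early G1, was the exception among 17 G1 genes, with 159 and 395 CPM in the KO step, a ratio of 2.49 (2.34 to 2.65), and 130 and 315 in WT.

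Genes of the targeted pathway were not called, in a step where only 2.12% of all genes were. The 30 neddylation, cullin and COP9 signalosome genes had a median of 0.03. Uba3 itself was at 0.29 with a ratio of 1.23 (1.11 to 1.36). Its partner Nae1 was at 0.33, Nedd8 at 0.02, Cul1 at 0.42 and Cul3 at 0.54. NRF2, an antioxidant factor degraded through Cul3, has 20 listed targets and regulators among the genes measured, and none was called. Nqo1, a quinone reductase and NRF2 target, had 207 counts in KO group 2 and 234 in KO group 3, against 3 and 5 in WT, so its level was high in both KO libraries and near constant between them (log2 0.07).

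Genes named for ribosomal RNA processing made up 7 of the 15 highest named genes. Rrp1, a nucleolar factor for the large ribosomal subunit (chromosome 10, 78400384 to 78413043), had 33.4 CPM in WT group 2, 52.2 in WT group 3, 45.8 in KO group 2 and 648 in KO group 3. The KO ratio was 14.2 (12.8 to 15.7). All 8 genes with an Rrp symbol, spread over 7 chromosomes, were called higher in KO, with ratios between 3.93 and 14.2. This set was chosen after its values were seen, so its count is a description. Rrp8, a methyltransferase of ribosomal RNA, had 59 and 586 counts in the KO step and 85 and 63 in WT. Summed, the 8 genes had 879, 942 and 1008 counts in WT group 2, WT group 3 and KO group 2, and 9705 in KO group 3. KO group 3 alone was high.

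Exosc5, a core subunit of the RNA exosome (chromosome 7, 25659164 to 25671368), had 95 and 992 counts in the KO step, a ratio of 9.68 (7.84 to 12.1), and 136 and 130 in WT. The 8 other Exosc genes lay between -0.19 and 0.41, so none of them was called. Dis3, the exosome's nuclease, had 88 and 272 counts in KO and 85 and 58 in WT. It was called higher in KO, with a ratio of 2.87 (2.25 to 3.69). Outside the Rrp genes, Exosc5 was the 1 called of 39 genes on the ribosome biogenesis list, which does not hold Dis3. The median of the 39 was 0.09, and 2.12% of all genes were called. Rrp12 was the 1 of the 8 also called higher in WT, with 5 and 27 counts beside 24 and 110 in KO. Promoters were in the RefSeq table for 7 of the 8 Rrp genes. On either strand, the letters CCAAT were in 4 of these 7, in 38.4% of all promoters and in 39.9% of those of the measured genes, and CCGGAAG was in 2 of the 7, 11.7% and 22.8%.

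Other transcripts that were called in the KO step were also highest in KO group 3. Hsp90aa1, the inducible cytosolic HSP90 (chromosome 12, 110690605 to 110702728), had 76.3 and 489 CPM in the KO step, a ratio of 6.41 (5.91 to 6.96), and 76.1 and 77.5 in WT. Hsp90aa1 was the 1 of 21 heat shock genes called, beside 2.12% called among all genes, and Chordc1, an HSP90 partner, stood at 0.30. Lars2, the mitochondrial leucyl-tRNA synthetase, had 214 and 1203 counts in KO and 193 and 210 in WT. Rpl12 was the 1 of 66 ribosomal protein genes called, with 413 and 1321 counts in KO and 479 and 422 in WT, while the list's median was 0.03. Gm42418 and Gm26917, adjacent on chromosome 17 (39843013 to 39848788 together) at a locus of ribosomal RNA sequence, had 786 and 13175 and 207 and 2283 counts in the KO step. In WT they had 756 and 713 and 154 and 292 counts, and Gm26917 was called higher there as well (log2 1.26). Gm42418 alone took 0.136% of the counts of KO group 3 and 0.0073% to 0.0089% of the other libraries; its part in the Rrp values was not tested. Of the 101 higher genes, 22 were at least 2-fold above each of the other 3 libraries in KO group 3, these among them. The call already sets 2-fold over KO group 2, and genes not called were not counted, so this describes the called genes alone.

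**Figure D4:**
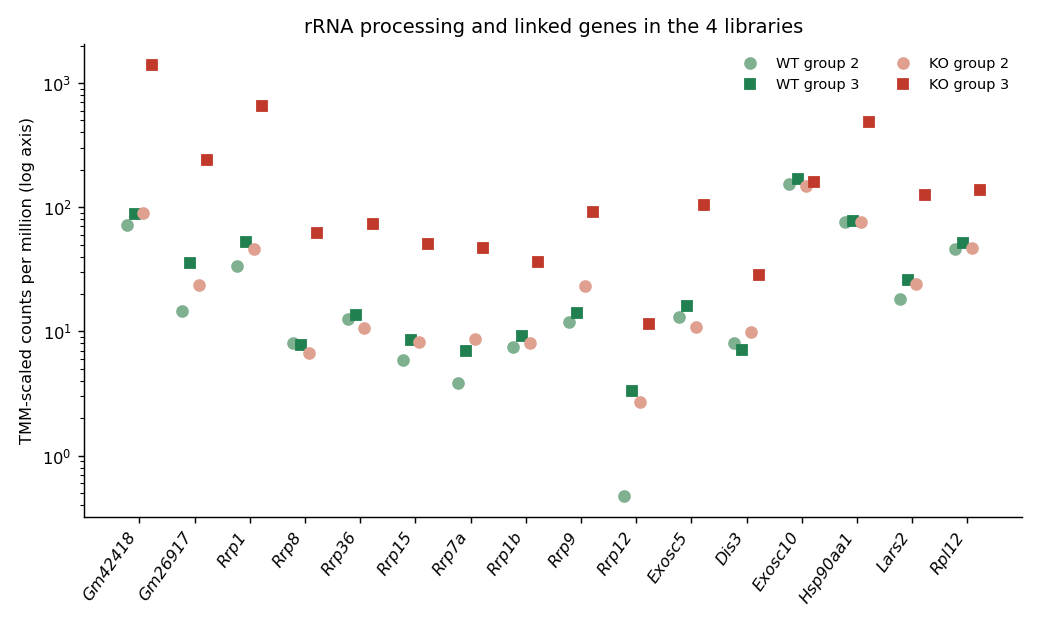
TMM-scaled CPM on a log axis for 16 genes in each of the 4 libraries; circles are group 2, squares group 3, green WT and red KO. KO group 3 stands above the other 3 libraries for every gene shown except Exosc10, an exosome subunit at 149 and 159 CPM in the KO step. The genes shown were picked with their values known, so the shared pattern describes them alone.

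Metabolic and protein turnover lists held a single called gene, beside 2.12% called among all genes. None of 36 oxidative phosphorylation genes (median -0.01), 33 proteasome genes (-0.11), 23 glycolysis and hypoxia genes (0.02), 21 amino acid response genes (-0.01) or 23 endoplasmic reticulum chaperone genes (0.18) was called. Hsd17b7, a cholesterol synthesis enzyme, was the 1 of 25 sterol and fatty acid genes called, with 95 and 46 counts. Ribosomal protein genes had a median of 0.03 in KO and -0.28 in WT. The 8 genes of the mitochondrial genome above the limit had a median of -0.65 in KO and -0.28 in WT, and none was called. mt-Co1, a subunit of complex IV, had 24975 and 16106 counts in the KO step. Mitochondrial genes together took 0.829% of the counts of KO group 2 and 0.538% of KO group 3, the highest and the lowest of the 4 libraries.

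Transcripts of plasma cells and neutrophils differed between the KO libraries and touch both ends of the list of called genes. In bulk RNA, fewer cells of a type and less RNA per cell cannot be told apart. Igkc, the kappa light chain, had 4328 counts in KO group 2 and 595 in KO group 3, against 2304 and 504 in WT. Ighg1, a heavy chain of class-switched antibody, had 1400 counts in KO group 2 and 2 in KO group 3, a ratio of 0.00132 (0.00016 to 0.00479), and 2 and 1 in WT. Ighg2c had 881 and 23 counts in KO and 620 and 5 in WT, and Jchain, which joins secreted antibody, had 505 and 108 in KO and 359 and 100 in WT. Of the 85 lower genes 12 were immunoglobulin genes, and 1 kappa segment, Igkv4-68, was among the higher with 1 and 106 counts. Ighm, the IgM heavy chain, had 9059 and 6872 counts and was not called (-0.51).

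The B cell list as a whole had summed levels of 1629 and 1392 CPM in WT and 2106 and 1210 in KO. All 9 members measured lay below 0 in the KO step, and 2 were called lower, beside 0.971% called lower among all genes. Cd79a, a B cell receptor chain, had 112 and 99 counts. Of 85 lower genes, 20 were at least 2-fold above each of the other 3 libraries in KO group 2. For these the call already sets 2-fold over KO group 3, so the count describes the called genes alone. Ngp, a neutrophil granule protein and the most strongly higher gene, had 2 counts in KO group 2 and 204 in KO group 3, against 2 and 6 in WT. Its KO ratio was 94.6 (25.8 to 786). Of the 16 neutrophil markers, 8 were higher in KO group 3 by the same rule and none was lower, though only Ngp reached 10 CPM. With no limit on level, 427 of all 35275 listed genes (1.21%) were called higher. Ltf, lactoferrin, had 1 and 72 counts with a ratio of 66.8 (11.6 to 2673), and S100a9, a calprotectin subunit, 1 and 62, a ratio of 57.5 (9.94 to 2307). Lcn2, lipocalin, was at 0 in KO group 2 and at 54 counts in KO group 3, which set against a floor of 3 counts makes it at least 16.7-fold higher. Among granule genes of immature neutrophils, Mpo had 0 and 9 counts and was called, and Prtn3, Ctsg and Elane were at 0 in KO group 3. Other markers of the list were not called in the KO step. Retnlg had 13 and 10 counts, Chil3 40 and 45, Csf3r 4 and 5, Fcnb 8 and 5 and Cxcr2 4 and 10. Summed neutrophil markers were at 8.96 and 10.7 CPM in WT and 8.83 and 56.5 in KO, and the part of these cells in other calls was not tested.

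**Figure D5:**
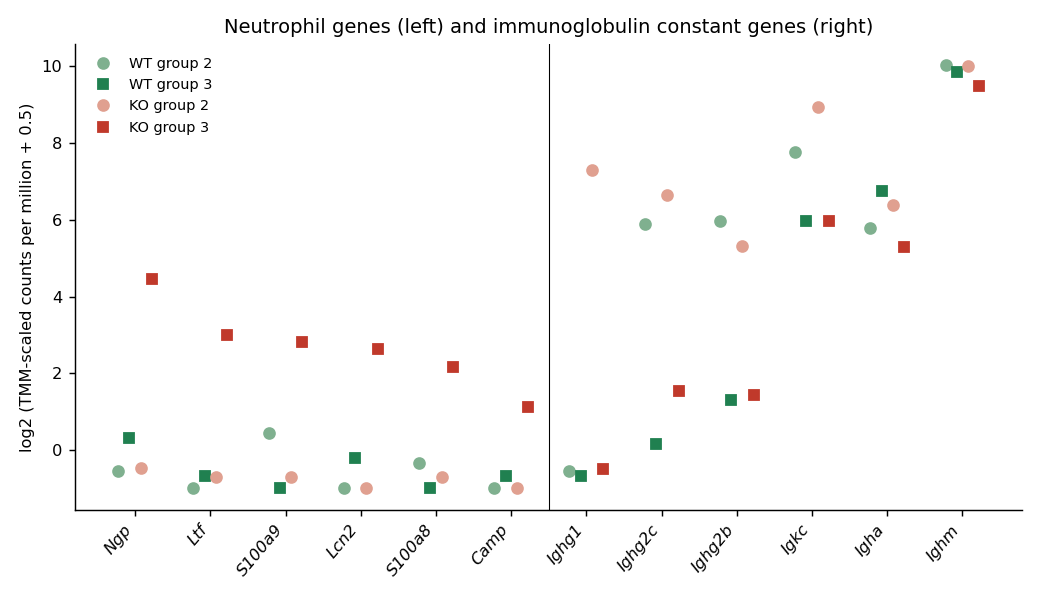
Levels as log2 (TMM-scaled CPM + 0.5) of 6 neutrophil genes and 6 immunoglobulin constant genes in the 4 libraries; circles are group 2, squares group 3, green WT and red KO. The 6 neutrophil genes shown, picked among those called, are high in KO group 3 alone. Ighg1 is high in KO group 2 alone, and Ighg2c, Ighg2b and Igkc in both group 2 libraries.

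Few markers of other cells were called, beside 2.12% called among all genes. Macrophage and dendritic cell markers summed to 280 and 301 CPM in WT and 355 and 368 in KO, with none of 6 members called. Erythroid markers summed to 383 and 427 CPM in WT and 555 and 421 in KO, thymic epithelial markers to 67.9, 59.1, 64.5 and 67.1 CPM over WT groups 2 and 3 and KO groups 2 and 3, with Foxn1, the epithelial master factor, at 0 in both KO libraries. Innate-like and gamma delta T cell genes all lay below 0 in KO, 9 of 9, with a median of -0.48, and Ly6c2 alone was called.

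The remaining lower genes included several with little known role in thymocytes. Cldn10, a tight junction claudin, had 39.6 and 10.3 CPM in the KO step, a ratio of 0.260 (0.205 to 0.326), and 47.1 and 5.76 in WT, so the group 2 libraries were high in both genotypes. Mpp4, a scaffold protein of photoreceptors, had 224 and 51 counts in KO and only 27 and 3 in WT. Chsy1, which builds chondroitin chains, had 106 and 29 counts in KO and 74 and 67 in WT, and Cpa3, a mast cell carboxypeptidase, 112 and 39 in KO and 101 and 95 in WT. Zfp488, a zinc finger repressor, had 368 and 133 counts in KO and 160 and 238 in WT. Gm10800 and Gm26870, unnamed entries, were high in KO group 2 alone, with 2282 and 857 and 513 and 184 counts in KO beside 988 and 975 and 173 and 203 in WT. Dbhos and Cep112it are antisense or intronic transcripts for which strand is not recorded, and their counts of 168 and 61 and of 117 and 28 in the KO step may include reads of the partner gene. On the higher side Acvrl1, a receptor of the TGF-beta family, had 12.3 and 47.9 CPM in the KO step and 7.62 and 48.3 in WT.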

How the data were processed

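RNA of sorted thymocytes was counted in 4 libraries, 1 per group, grouped by sample title. The authors deposited counts per Ensembl gene and, for each library, a table of RPKM. The submitters' processing notes name TopHat2 2.0.12 and the build mm10. The counter, its strand setting and read layout are not given in the sources used here, so overlapping, antisense and near-identical genes are less certain. The RPKM deposited by the authors served only to check the gene lengths they imply, which were whole to within 0.01 bp for 100% of values.

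Symbols and coordinates came from GENCODE release M21, and unmatched IDs held at most 0.128% of a library's counts. Library scaling used TMM factors (edgeR 4.0.16 under R 4.3.3) over genes with 2 CPM in a library. A fold was the log2 ratio of scaled CPM plus 0.5. Its 95% interval came from the count ratio by the exact binomial method of Clopper and Pearson, conditional on the sum. Both were tested on simulated counts that held counting error alone, so that check does not cover other differences between libraries. Calls needed 2-fold and an interval excluding 1; where 1 library had 0 counts the bound used a floor of 3 counts. Totals ran from 8043077 to 10299863 counts.

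The genes and the 48 lists were chosen with earlier results of these data known, and some genes are on several lists. Named genes were Uba3, the 15 highest and 15 lowest called genes without unnamed, segment, pseudogene and sex-linked entries, up to 4 genes per list (2 where none was called), a fixed set of thymocyte genes, and genes called in opposite directions between genotypes. Other genes, among them the printed promoters, Gm entries, neutrophil and immunoglobulin genes and several list members, were chosen after their values were seen. The values of 1 gene that the rule named are not reported here. Promoters came from RefSeq (GRCm38.p6). Alternatives were DESeq2 1.42.0 size factors, plain totals, other TMM sets, CPM limits, pseudocounts and folds.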

Additional observations from a re-analysis of the deposited data

Results flagged for a closer look

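The 5 genes called in opposite directions in the genotypes were all lower in group 3 among libraries labelled KO and higher in group 3 among WT libraries. Each passed the limit of 10 CPM through KO group 2 alone, the KO library where it was high. The WT libraries had no part in that limit, so the shared direction is a description. The difference between the genotypes was not tested, since each group holds 1 library. Atoh1, a transcription factor known from neurons and hair cells, had a log2 fold of -2.07 in KO (92 counts in group 2 and 20 in group 3) and 1.01 in WT (89 and 143). Rpgrip1, a ciliary protein of photoreceptors, stood at -1.62 in KO (103 and 33 counts) and 1.43 in WT (33 and 76). Serpine2, a protease inhibitor, stood at -1.09 in KO (145 and 71 counts) and 1.56 in WT (25 and 65). Gm15298, an unnamed entry, stood at -1.09 in KO (157 and 77 counts) and 1.15 in WT (85 and 151). Jaml, a junctional adhesion molecule, stood at -1.01 in KO (94 and 48 counts) and 1.15 in WT (32 and 60). Libraries KO group 2 and WT group 3, the higher side of each pair, also had a count above 0 for more genes (23925 and 23325) than KO group 3 and WT group 2 (20521 and 20440), and the part of this in the folds was not tested.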

How the results depend on the processing

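The main counts were 101 higher and 85 lower. They became 218 and 668 with a limit of 2 CPM, 427 and 1951 with no limit, 40 and 22 with a limit of 50 CPM, and 467 and 356 at 1.5-fold. Lower genes fell to 51 without segments, unnamed entries and pseudogenes (88 higher), an alternative chosen after seeing the data. The share of called genes that were higher was 54.3% in the main setting, 24.6% at 2 CPM, 18.0% with no limit and 64.5% at 50 CPM. It was 63.3% with TMM factors from all listed genes (126 higher, 73 lower), also chosen after seeing the data, as was leaving out the Rrp genes (93 and 85). DESeq2 size factors (105 and 83), plain totals (101 and 86), TMM from the KO libraries (103 and 84) and pseudocounts of 2 (87 and 63) and 0.1 (106 and 91) stayed within 1.5 times. No called gene among the named ones changed direction under another scaling or pseudocount, though 34 left their counting interval with TMM factors from all listed genes. At 2 CPM the medians of the AP-1 and immediate early list and of the macrophage and dendritic cell list changed sign, to -0.0137 and -0.0249. The medians of 10 further lists moved by over 0.1 at 2 CPM, and that of 1 list at each other pseudocount. No paired analysis was possible because each group holds 1 library, and for the same reason no library could be left out. Depth limits genes near 10 CPM, which have about 90 counts.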

Other observations

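Genes just under the limit of 10 CPM were mostly lower in KO group 3 where they were called. Of 3126 genes between 2 and 10 CPM, 117 were higher in KO group 3 and 583 were lower by the same rule, with a median log2 fold of -0.27. In the WT step the same genes had 389 higher and 118 lower, with a median of 0.10. Protein-coding genes alone, 2498 of them, gave 89 higher and 490 lower in KO. Most of these genes were called in neither step, and they were taken by their level in the KO libraries. KO group 2 and WT group 3, the libraries on the higher side of most calls, also had a count above 0 for the most genes, and the part of this in the calls was not tested.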
